A study of Mus musculus with 12 samples.

Results

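Endothelial cells line blood vessels, and mural cells (pericytes and vascular smooth muscle) wrap around them. Of the 23735 gene models in the deposited tables, 10 genes were followed here because they are textbook markers of these cells. The endothelial genes were Vwf, Tek, Flt1, Kdr, Pecam1, Cdh5 and Cldn5, and the mural genes were Mcam, Rgs5 and Pdgfrb. Each symbol was found on 1 row, so no choice between rows was needed. All values came from cells flow-sorted from mouse back skin as hair follicle stem cells (HFSCs). The sorting was aimed at a compartment of epithelial and not vessel cells.

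Vessel growth is driven by VEGF ligands, which endothelial cells sense through the receptor genes Kdr and Flt1. Angiopoietins act through the receptor gene Tek, and PDGF-B released by endothelial cells attracts pericytes that carry Pdgfrb. The vessel network around the hair follicle is known to expand in the growth phase (anagen) and to shrink back by the resting phase (telogen).

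The 12 mRNA-seq libraries form 7 groups. Anagen cells came from male mice at day 30 on a mixed Black Swiss and C57BL/6 background, with 2 libraries of FOXC1-Sox9CreER-heterozygous mice (Het) and 2 of FOXC1-Sox9CreER-iKO mice (inducible knockout, iKO). All Sox9CreER mice, controls included, received tamoxifen, which switches on Cre in Sox9-expressing cells. For second telogen, the wild-type (WT) and FOXC1-K14Cre-cKO groups were Black Swiss, each made of 1 male (day 42) and 1 female (day 46); cKO stands for conditional knockout, and K14 for the keratin 14 promoter of basal epithelium. A further 2 iKO libraries were of second telogen, from males of the mixed background at day 60. The Shh-Het genotype is represented by Agouti females, 1 in first telogen (about day 23) and 1 in anagen substage II (about day 26), and the titles call both WT.

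Expression is given as FPKM (fragments scaled to gene model length and library size) by the authors, as 1 pooled value per group. Values per library, the spread between replicates and the overlap of groups were therefore not analysed here, and sequencing depth is unknown. Levels below are from the joint table of all 7 groups unless another table is named. Foxc1 itself had 42.6 and 22.1 FPKM in the first telogen and anagen II libraries, 22.5 in anagen Het, 1.32 in anagen iKO, 27.5 in telogen WT, 1.66 in telogen cKO and 3.17 in telogen iKO cells. The bulge stem cell genes Cd34 (129 to 883 FPKM), Lhx2 (149 to 257) and Sox9 (59.5 to 132) were present in all groups. Krt5 and Krt15 were listed at 0 in 5 and 3 groups, where the status field marks the locus as holding too much data. The first telogen library stood apart in the markers of other cells, as described next.

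Foxc1 encodes a forkhead transcription factor, so promoters were searched for the forkhead core. Shown are Tek, Flt1 and Mcam, the genes with an entry that were called in a knockout comparison, and Rgs5, the gene with a forkhead match. Of the 10 genes 6 matched the RefSeq promoter table of build GRCm38.p6 (not Vwf, Pecam1, Cdh5 and Pdgfrb), and the windows are the 250 bases before the annotated start. Capitals mark the forkhead core TAAACA, which reads TGTTTA on the opposite strand, and the core GGAA, which reads TTCC on the opposite strand, of ETS factors, which are central in endothelial cells; no forkhead match shares a base with an ETS match.
Tek (chr4:94739039-94739288, plus strand): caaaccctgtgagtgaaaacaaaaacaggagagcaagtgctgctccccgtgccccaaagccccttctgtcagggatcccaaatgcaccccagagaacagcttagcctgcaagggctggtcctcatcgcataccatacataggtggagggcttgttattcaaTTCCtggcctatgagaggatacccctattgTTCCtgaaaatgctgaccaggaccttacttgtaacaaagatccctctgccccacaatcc
Flt1 (chr5:147726012-147726261, minus strand): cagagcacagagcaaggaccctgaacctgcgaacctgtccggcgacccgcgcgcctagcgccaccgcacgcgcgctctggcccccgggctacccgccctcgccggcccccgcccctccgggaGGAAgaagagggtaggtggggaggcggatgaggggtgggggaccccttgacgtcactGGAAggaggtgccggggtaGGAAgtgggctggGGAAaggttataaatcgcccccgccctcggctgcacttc
Mcam (chr9:44134408-44134657, plus strand): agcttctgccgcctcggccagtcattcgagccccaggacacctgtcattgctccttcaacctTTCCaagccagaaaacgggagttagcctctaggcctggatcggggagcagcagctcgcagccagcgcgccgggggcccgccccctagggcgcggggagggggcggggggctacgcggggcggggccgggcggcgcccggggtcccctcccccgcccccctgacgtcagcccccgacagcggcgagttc
Rgs5 (chr1:169655251-169655500, plus strand): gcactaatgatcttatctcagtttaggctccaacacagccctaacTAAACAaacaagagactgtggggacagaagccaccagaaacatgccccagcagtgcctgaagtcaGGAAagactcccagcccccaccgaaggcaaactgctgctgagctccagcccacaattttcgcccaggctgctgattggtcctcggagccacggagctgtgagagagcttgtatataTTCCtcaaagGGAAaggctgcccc
The forkhead core has 1 match in Rgs5 and no match in these windows of Tek, Flt1, Kdr, Cldn5 and Mcam, and 12.0% of 27025 promoter windows of this length hold it. The ETS core has 4 matches in Flt1 and in Kdr, 3 in Rgs5, 2 in Tek, 1 in Mcam and none in Cldn5, and 93.4% of windows hold it.

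**Figure D1:**
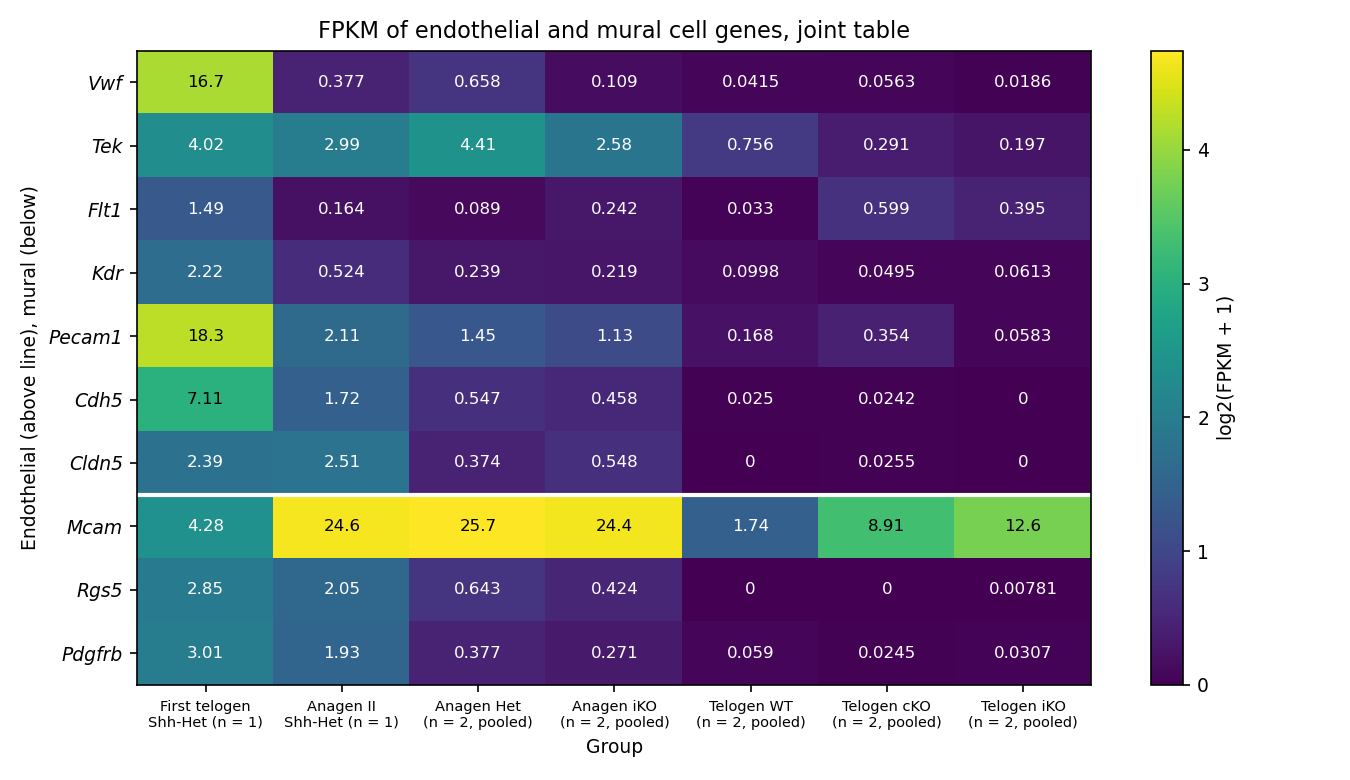
FPKM of the 10 genes (rows) in the 7 groups (columns) of the joint table, coloured by log2(FPKM + 1), with the FPKM printed in each cell; Shh-Het groups hold 1 library and the others 1 pooled value of 2 libraries. Most endothelial genes are highest in the first telogen library and near 0 in second telogen, while Mcam is high in all anagen groups.

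In the first telogen library all 7 endothelial genes were at 1 FPKM or more, and their summed level was 52.2 FPKM, against 1.12 in second telogen WT cells. Of the 7, 5 were highest in this library of all groups, as were 21.8% of all genes that reached 1 FPKM in any group. Vwf, Kdr and Flt1 reached 1 FPKM in this library alone. Pecam1, an adhesion molecule of endothelial junctions, had 18.3 FPKM. Vwf, the platelet-binding glycoprotein stored in endothelial granules, had 16.7, and Cdh5, the endothelial cadherin, had 7.11. The receptor genes Tek, Kdr and Flt1 had 4.02, 2.22 and 1.49, and the tight junction gene Cldn5 had 2.39. The mural genes were also present, with 4.28 for the adhesion molecule Mcam, 3.01 for the PDGF-B receptor Pdgfrb and 2.85 for Rgs5, a regulator of G protein signalling.

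Against second telogen WT cells, Vwf was 401-fold, Cdh5 284-fold, Pecam1 109-fold and Pdgfrb 50.9-fold higher in the first telogen library, while Tek was 5.31-fold and Mcam 2.47-fold higher. Cldn5 and Rgs5 were listed at 0 in telogen WT cells, so no fold is given. All 10 genes were at least 2-fold higher, a size reached by 14.2% of genes with 1 FPKM or more in either group, while 5.67% were at least 2-fold lower. All members but Mcam were below 1 FPKM in telogen WT cells and passed this minimum through the first telogen library alone. They could therefore not count as lower, so the shares are no like measure for them. With a single first telogen library, which also differs in genotype, strain, age and in part in sex, the difference from telogen WT cells has no replicate check.

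Between the 2 Shh-Het libraries the genes did not shift together. Vwf was 44.2-fold, Flt1 9.09-fold, Pecam1 8.67-fold, Kdr 4.24-fold and Cdh5 4.12-fold higher in first telogen than in anagen II. Those 5 genes passed 2-fold, as did 20.1% of genes with 1 FPKM or more in either library. Vwf, Flt1 and Kdr, at 0.377, 0.164 and 0.524 FPKM in anagen II, passed this minimum through first telogen alone. They could therefore not count as lower. Pdgfrb, Rgs5 and Tek were 1.56-, 1.39- and 1.34-fold higher, and Cldn5 had 2.39 and 2.51 FPKM. Mcam went the other way, with 4.28 FPKM in first telogen and 24.6 in anagen II, 5.74-fold more, where 10.4% of genes were at least 2-fold higher in anagen II.

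The anagen II library also differed from anagen Het cells, which are of another strain, sex and genotype and came from mice given tamoxifen. Of the 7 genes with 1 FPKM or more in either group, Cldn5 was 6.70-fold, Pdgfrb 5.13-fold, Rgs5 3.18-fold and Cdh5 3.15-fold higher in anagen II and none was 2-fold lower. That size was reached by 10.5% of such genes in the higher and by 8.18% in the lower direction. Cldn5, Pdgfrb, Rgs5 and Cdh5 had 0.374, 0.377, 0.643 and 0.547 FPKM in anagen Het cells. They passed the minimum of 1 FPKM through anagen II alone and could therefore not count as lower. Mcam had nearly the same level in both, 24.6 and 25.7 FPKM, and Tek had 2.99 and 4.41.

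Most further endothelial genes, and other lists in part, were also high in the first telogen library. Of 34 further endothelial genes in the tables, 32 were highest there. Plvap, which forms the diaphragms of endothelial pores, had 41.8 FPKM in first telogen, 5.63 in anagen II and 0.238 in telogen WT cells. Endomucin (Emcn) had 10.2 FPKM in first telogen and was listed at 0 in telogen WT cells. Of 16 further pericyte and smooth muscle genes 8 were highest there, but their sum was 118 FPKM against 134 in telogen WT cells and 706 in anagen II. Fibroblast genes, 8 in all, summed to 2232 FPKM in first telogen, 1054 in anagen II and 73.6 to 187 in the other groups. In telogen WT cells Fbln1 alone held 123 of 147 FPKM, while Col3a1 had 0.382 and Dcn 0.305, against 28.7 and 18.2 in anagen Het cells. Immune genes, 7 in all, summed to 230 in first telogen and to between 10.3 and 96.2 elsewhere. The platelet gene Pf4 had 17.5 FPKM in first telogen against 0 in telogen WT cells. Other platelet genes did not share this: Ppbp had 0.177 FPKM in first telogen, and Gp9 had 0.209 against 0.256 in telogen WT cells. Itga2b had 1.42 FPKM in first telogen and 4.97 in anagen II. In these bulk samples, fewer cells of a type and less RNA per cell cannot be told apart, and the part of other cells in the values of the 10 genes was not tested.

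**Figure D2:**
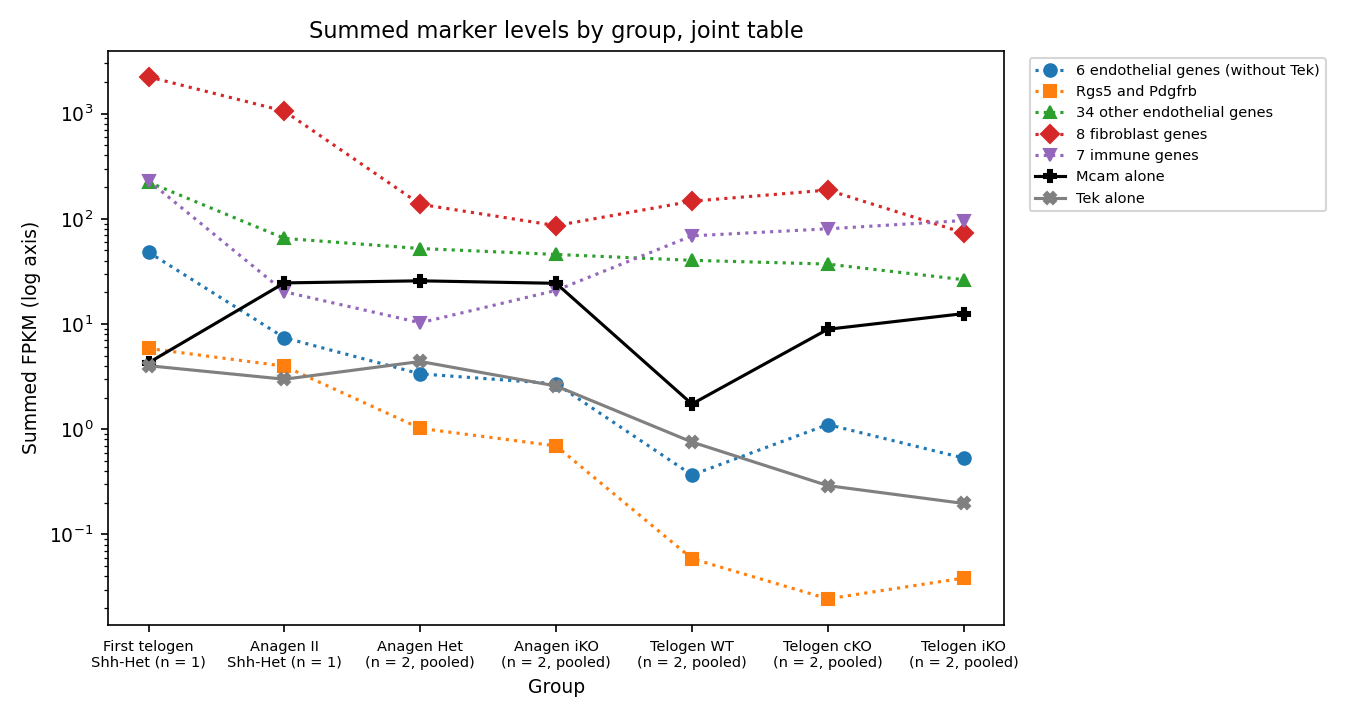
Summed FPKM (log axis) of marker lists in the 7 groups, with Mcam and Tek drawn alone; lines only join the points of 1 list. The 6 endothelial genes without Tek run from 48.1 in the first telogen library to 0.368 in telogen WT cells, and Mcam does not run parallel to them.

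Anagen Het cells were then set against second telogen WT cells, which are the replicated control groups of both stages. All 10 genes had higher values in anagen, and all 8 that the authors' test covered were called higher at q below 0.05, where 11.9% of 13932 tested genes were higher and 25.4% were called in either direction. Among the called genes, Cldn5 and Rgs5 were listed at 0 in telogen, so those calls carry no fold. Kdr and Flt1 were not tested, with 0.239 and 0.0890 FPKM in anagen against 0.0998 and 0.0330 in telogen. The median log2((FPKM + 1) ratio) over the 10 genes was 0.63, against -0.00 over all tested genes. Control genotype, strain, age and sex differ with stage here, so stage alone cannot be told apart from them. Tamoxifen, which the anagen Het mice received, may differ as well.

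Mcam stood at 25.7 FPKM in the anagen controls and at 1.74 in the telogen controls, 14.8-fold higher, with a log2 fold of 3.89 (SE 0.36, q = 0.000444) in the authors' deposited joint table. Tek followed with 4.41 and 0.756 FPKM, a log2 fold of 2.54 (SE 0.43, q = 0.000444) in the authors' deposited joint table. The remaining called genes were low in both groups. Pecam1 had 1.45 and 0.168 FPKM (8.63-fold), Vwf 0.658 and 0.0415 (15.8-fold), Cdh5 0.547 and 0.0250 (21.9-fold) and Pdgfrb 0.377 and 0.0590 (6.38-fold), ratios of the FPKM values in the authors' deposited table. Rgs5 and Cldn5 had 0.643 and 0.374 FPKM in anagen and were listed at 0 in telogen WT cells. Where the telogen value was just above 0, anagen Het cells gave no call for either gene in the authors' deposited joint table. This was so for Cldn5 against telogen cKO (0.0255 FPKM, q = 0.29) and Rgs5 against telogen iKO cells (0.00781 FPKM, q = 0.431). The other lists did not all run the same way: 5 of 8 tested fibroblast genes were called higher and 1 lower, and 6 of 18 tested further endothelial genes were higher and 2 lower. Of 7 tested immune genes none was called higher in the authors' Cuffdiff test, 1 was called lower, and 1 was higher and 3 were lower at an unadjusted p below 0.05.

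Inducible knockout cells of both stages, which share driver, background and sex, differed in the same direction. Their age differs with stage (day 30 in anagen and day 60 in telogen), so stage and age cannot be told apart. In telogen iKO against anagen iKO cells 6 of 8 tested genes were called lower and none higher, also at an unadjusted p below 0.05 in the authors' Cuffdiff test. Over all 13787 tested genes 15.5% were lower, 17.6% were higher and 33.2% were called in either direction, and the gene with a higher telogen value, Flt1, was not called (q = 0.218 in the authors' deposited table). Tek had 0.197 FPKM in telogen and 2.58 in anagen iKO cells, 13.1-fold lower, and Pecam1 had 0.0583 and 1.13, 19.4-fold lower. Cdh5 and Cldn5 were listed at 0 in telogen iKO cells against 0.458 and 0.548, so their calls carry no fold. Between anagen iKO and telogen cKO cells Cldn5 (0.0255 FPKM in cKO, q = 0.29) was not called in the authors' deposited joint table. Cdh5 (0.0242 FPKM in cKO, q = 0.0211) was called there. Mcam fell from 24.4 to 12.6 FPKM, which is 1.94-fold lower (SE of the log2 fold 0.28, q = 0.000444 in the authors' deposited table). Pdgfrb was 8.82-fold lower, and Rgs5, with 0.424 and 0.00781 FPKM, was not called. Other lists moved in the same comparison, with 4 of 8 tested fibroblast genes called lower and 1 higher (list median of log2((FPKM + 1) ratio) -1.15), and 5 of 7 immune genes called higher and none lower, also at an unadjusted p below 0.05 in the authors' Cuffdiff test. Of 15 tested further endothelial genes 6 were lower and 1 higher, of 11 pericyte and smooth muscle genes 4 were lower and 4 higher, and of 2 platelet genes 1 was lower. The part of these cells in the values of the 10 genes was not tested.

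**Figure D3:**
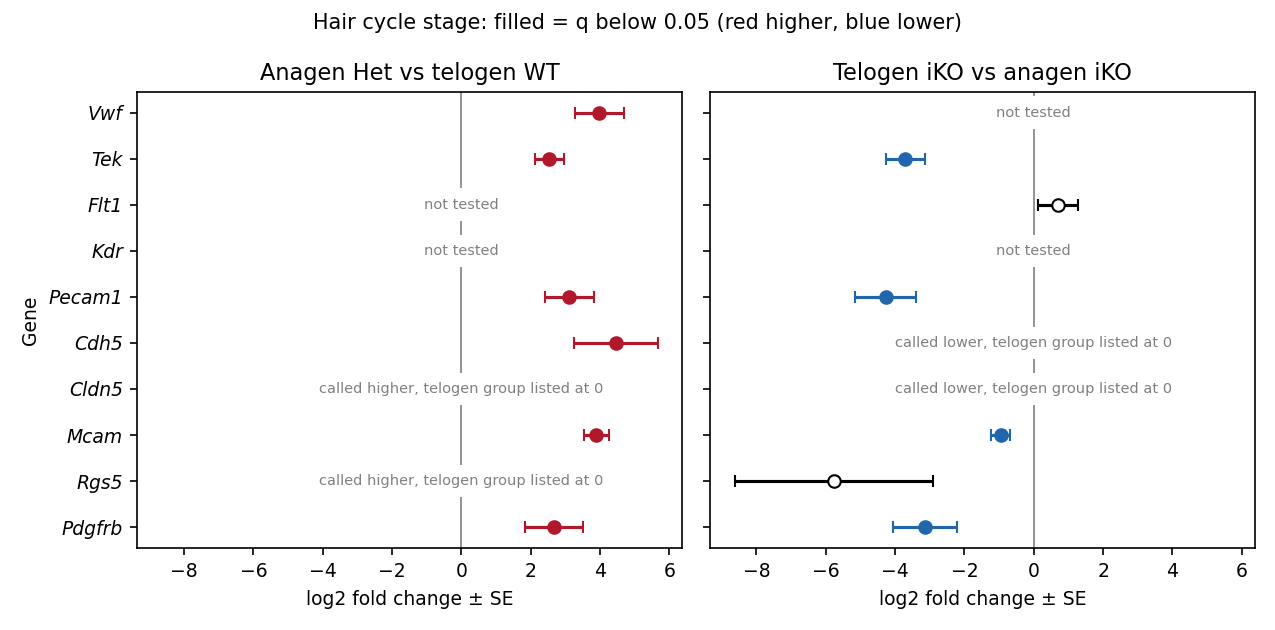
Log2 fold change with SE of each gene between stages, in controls (left) and in iKO cells (right), from the joint table; filled points have q below 0.05. All points lie on the anagen side in controls, where Cldn5 and Rgs5 were called but have no finite fold and are given as text. In iKO cells Mcam has the shortest fall among the called genes with a finite fold.

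Growing-phase cells with and without Foxc1 were compared next. Tek and Vwf were lower in iKO than in Het cells and the other 6 tested genes were not called. That is 2 of 8 tested genes lower, where 5.08% of 13716 tested genes were lower and 10.3% were called in either direction, and none higher, also at an unadjusted p below 0.05 in the authors' Cuffdiff test. The median log2((FPKM + 1) ratio) over the 10 genes was -0.10, against -0.02 over all tested genes.

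Tek lies in mm9 on chromosome 4 from 94405980 to 94541667. In the anagen table it fell from 4.67 FPKM in Het to 2.73 in iKO cells, a 1.71-fold difference with a log2 fold of -0.77 (SE 0.32, q = 0.00712) in the authors' deposited table. Vwf, on chromosome 6 from 125502966 to 125636697, fell from 0.697 to 0.116 FPKM, a 6.03-fold difference with a log2 fold of -2.59 (SE 0.56, q = 0.00106) in the authors' deposited table. Both Vwf values were below 1 FPKM, and on the log2(FPKM + 1) scale its difference was -0.60, the same as for Tek. The endothelial genes Pecam1 (1.54 in Het and 1.20 FPKM in iKO cells), Cdh5 (0.580 and 0.486) and Cldn5 (0.397 and 0.581) were not called. Mcam had 27.3 and 25.8 FPKM, with a log2 fold of -0.08 (SE 0.25, q = 0.893) in the authors' deposited table. Rgs5 had 0.682 and 0.449, and Pdgfrb 0.399 and 0.287.

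Further vessel genes gave no common direction in anagen. Of 20 tested among 34 further endothelial genes, 2 were higher in iKO cells and none lower. These were Sele, an endothelial adhesion molecule for leukocytes, at 3.52-fold and the lymphatic endothelial gene Lyve1 at 2.37-fold, both below 1 FPKM in both groups in the authors' deposited table. Of 16 pericyte and smooth muscle genes, 10 were tested, and the contractile genes Cnn1 (2.16-fold) and Acta2 (1.65-fold) were higher and Anpep was 2.97-fold lower in the authors' deposited table. In the same comparison 3 of 8 fibroblast genes were lower and none higher, among them Col1a2 at 2.44-fold in the authors' deposited table, and the 8 summed to 137 FPKM in Het and 86.1 in iKO cells. The part of fibroblasts or vessel cells in the Tek and Vwf differences was not tested.

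In second telogen WT cells all of the 10 genes except Mcam and Tek were close to 0, and the knockout comparison therefore rests on few genes. Of the 10 genes 4 were tested, and 2 of them, Flt1 and Mcam, were higher in cKO cells, where 3.75% of 13551 tested genes were higher, 2.87% lower and 6.62% were called in either direction. None was called lower, although Tek was lower at an unadjusted p of 0.0061 in the authors' Cuffdiff test. The median log2((FPKM + 1) ratio) over the 10 genes was 0.01, against 0.00 over all tested genes.

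Mcam lies in mm9 on chromosome 9 from 43942741 to 43950809. In the telogen table it rose from 1.67 FPKM in WT to 8.55 in cKO cells, a 5.13-fold difference with a log2 fold of 2.36 (SE 0.44, q = 0.00159) in the authors' deposited table. Flt1, on chromosome 5 from 148373772 to 148537564, rose from 0.0317 to 0.573 FPKM, an 18.1-fold difference with a log2 fold of 4.17 (SE 1.01, q = 0.0163) in the authors' deposited table. The WT value of Flt1 was close to 0, and on the log2(FPKM + 1) scale the difference was 0.61. Tek had 0.727 in WT and 0.280 in cKO cells, with a log2 fold of -1.38 (SE 0.68) and q = 0.0799 in the authors' deposited telogen table. In the joint table Tek was called lower for the same groups, with q = 0.00834 in the authors' deposited joint table, where 5.76% of genes were lower, 6.44% higher and 12.2% called in either direction. Pecam1 had 0.161 and 0.341 FPKM and was not called.

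Other vessel genes had unlike levels in the telogen groups where Flt1 and Mcam rose. In telogen cKO cells Cdh5 had 0.0242, Kdr 0.0495, Vwf 0.0563 and Cldn5 0.0255 FPKM in the joint table, and Rgs5 and Pdgfrb had 0 and 0.0245. Pecam1 had 0.354 FPKM there, against 0.168 in telogen WT cells, and Flt1 had 0.599. Of the further endothelial genes, 6 were at 1 FPKM or more in telogen cKO cells, led by Ramp2 (11.4) and Acvrl1 (10.7). The part of vessel cells in the Flt1 and Mcam differences was not tested. In telogen iKO cells Kdr had 0.0613, Vwf 0.0186 and Pecam1 0.0583, and Cdh5 and Cldn5 were listed at 0. The ratio of Flt1 to Kdr in FPKM, a measure per length, was 12.1 in telogen cKO and 6.44 in telogen iKO cells, and 0.313 to 1.10 in the other 5 groups. The Kdr values under the high ratios, 0.0495 and 0.0613 FPKM, are close to 0, so these ratios are uncertain. The ratio of Mcam to Pecam1 was 0.234 in the first telogen library and at least 10.3 in each of the other 6 groups. It reached 215 in telogen iKO cells, where Pecam1 was close to 0 (0.0583 FPKM). The ratio of Tek to Pecam1 was 0.220 in the first telogen library, 1.42 in anagen II, 3.04 in anagen Het and 2.28 in anagen iKO cells. In second telogen it was 4.50 in WT, 0.822 in cKO and 3.38 in iKO cells. Of 34 further endothelial genes 10 were tested in telogen and none was called in cKO cells by the authors' Cuffdiff test, with 1 higher at an unadjusted p below 0.05.

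Telogen iKO cells, set against the same WT libraries in the joint table, gave calls for Mcam, Flt1 and Tek among 3 tested genes. Driver, strain, age and sex differ between these groups, and tamoxifen, which the iKO mice received, may differ too. The control is shared with the cKO comparison, so the values are given side by side without a test of their likeness. Higher genes made up 7.01%, lower genes 5.88% and both together 12.9% of 13714 tested genes. Mcam had 12.6 FPKM, 7.23-fold above the WT value, with a log2 fold of 2.85 (SE 0.36, q = 0.000444) in the authors' deposited joint table. Flt1 had 0.395, 11.9-fold above WT, with a log2 fold of 3.58 (SE 0.86, q = 0.0019) in the authors' deposited joint table. Tek had 0.197 FPKM, 3.83-fold below WT, with a log2 fold of -1.94 (SE 0.61, q = 0.000444) in the authors' deposited joint table.

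**Figure D4:**
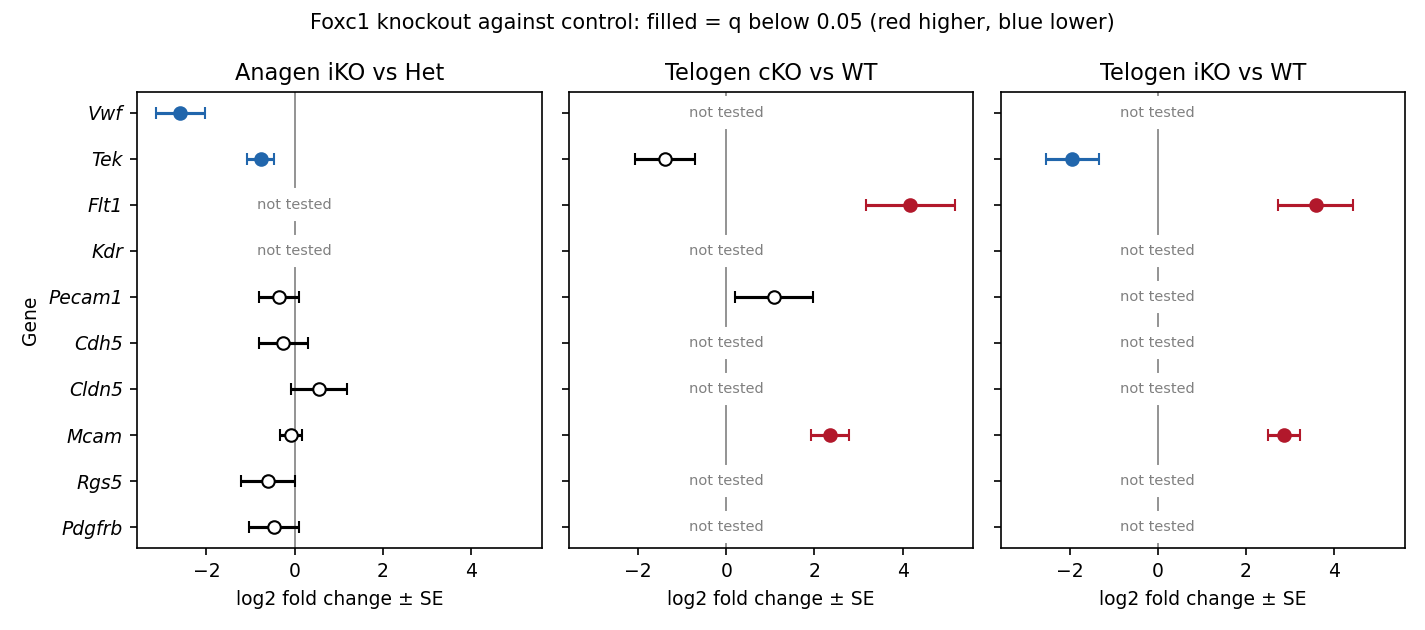
Log2 fold change with SE of each gene in knockout against control cells for anagen iKO (anagen table), telogen cKO (telogen table) and telogen iKO (joint table); filled points have q below 0.05. Tek lies below 0 in all 3 comparisons, and Mcam lies near 0 in anagen and at 2.36 and 2.85 in telogen.

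Whether the knockout effect differs between stages was tested for the 3 genes with a test in both 2-group tables. The Mcam effect was larger in telogen than in anagen by 2.44 on the log2 scale (SE 0.50), with a Benjamini-Hochberg adjusted p of 0.000499 from a z test across all genes. Of 12939 genes in that test, 0.657% passed. For Tek the difference was -0.61 (SE 0.75) and for Pecam1 1.44 (SE 0.99), and neither passed the threshold. Vwf and Flt1 could not be tested, since each has a test in 1 of both tables. Along with stage, the driver of Cre and the genotype, strain, age and sex of the controls differ. Tamoxifen, which the Sox9CreER mice of the anagen groups received, may differ as well.

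The order of levels over the 5 replicated groups was read from the joint table. Mcam ran from anagen Het (25.7 FPKM) and anagen iKO (24.4) through telogen iKO (12.6) and telogen cKO (8.91) to telogen WT (1.74). In that order the pair of anagen groups (q = 0.827) and the telogen iKO and cKO pair (q = 0.075) were not called, and the other neighbours were, in the authors' deposited table. Tek ran from anagen Het (4.41) through anagen iKO (2.58), telogen WT (0.756) and telogen cKO (0.291) to telogen iKO (0.197), and among neighbours only the last pair was not called (q = 0.425 in the authors' deposited table). Pecam1 was called between the neighbours anagen iKO (1.13) and telogen cKO (0.354), with q = 0.00254 in the authors' deposited table. Within telogen, Pecam1 was also lower in iKO (0.0583) than in cKO cells, with a log2 fold of -2.60 and q = 0.0117 in the authors' deposited table. Cdh5 was called between the neighbours anagen iKO (0.458) and telogen WT (0.0250), with q = 0.0277 in the authors' deposited table. Pdgfrb was called between the same groups as Cdh5 (0.271 and 0.0590), with q = 0.0217 in the authors' deposited table. Kdr ran from anagen Het (0.239) and anagen iKO (0.219) through telogen WT (0.0998) and telogen iKO (0.0613) to telogen cKO (0.0495), with no test between neighbours. Flt1 was highest in telogen cKO (0.599), then telogen iKO (0.395) and anagen iKO (0.242), with no call between these neighbours and no test below them. Calls in either direction made up 11.0% of tested genes between the anagen groups, 35.4% between telogen WT and anagen iKO cells, 28.3% between telogen cKO and anagen iKO cells and 14.9% between telogen iKO and cKO cells.

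Ligands and modulators of vessel growth were called in both knockouts. In anagen 4 of 18 tested genes of the VEGF, angiopoietin and PDGF list were higher and 1 lower. Of all tested genes 5.18% were higher and 5.08% lower there. Vegfa, the main ligand of Kdr and Flt1, was 2.02-fold higher, Figf, which encodes VEGF-D, 2.60-fold and the angiogenesis inhibitor Thbs1 1.89-fold higher, and the semaphorin Sema3e was 1.53-fold lower in the authors' deposited table. In telogen 4 of 16 tested genes were higher and 1 lower in cKO cells, where 3.75% of all tested genes were higher and 2.87% lower. Vegfa was 3.50-fold higher in cKO cells, the PDGF ligand Pdgfc 4.33-fold and the oxygen-sensor gene Egln3 2.47-fold higher, and Sema3e was 2.72-fold lower in the authors' deposited table. In the joint table Vegfa had 6.97 FPKM in anagen Het, 14.1 in anagen iKO, 4.14 in telogen WT, 14.6 in telogen cKO and 22.4 in telogen iKO cells. Of 24 genes on the list, 9 had higher values in anagen iKO and 14 in telogen cKO cells, and the list medians of log2((FPKM + 1) ratio) were -0.06 and 0.03.

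Among markers of other cells, the anagen comparison called 2 of 9 tested bulge genes, 3 of 8 fibroblast genes, 1 of 6 immune genes, 1 of 2 platelet genes and 0 of 7 melanocyte and Schwann genes, where 10.3% of all tested genes were called. Bulge genes Cd34 (1.77-fold) and Nfatc1 (1.48-fold) were lower in anagen iKO cells, and none of 9 tested bulge genes was called in telogen, though 3 were lower at an unadjusted p below 0.05 in the authors' Cuffdiff test. The collagen genes Col3a1 (2.05-fold) and Col1a1 (1.92-fold) were the other fibroblast genes lower in anagen iKO cells, while Col1a1 was 6.22-fold higher in telogen cKO cells, in the authors' deposited tables. The antigen presentation gene Cd74 was 2.47-fold higher and the platelet integrin gene Itga2b 1.65-fold higher in anagen iKO cells in the authors' deposited table. In telogen no immune (6 tested) or platelet gene (1 tested) was called, also at an unadjusted p below 0.05 in the authors' Cuffdiff test. Melanocyte and Schwann genes gave no call among 7 tested in anagen, with 2 lower at an unadjusted p below 0.05, and none among 6 in telogen, also at that p, in the authors' Cuffdiff test. Anpep was also 1.89-fold lower in telogen cKO cells in the authors' deposited table.

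Genes with a profile most like those of the 3 highest members were ranked by Pearson correlation of log2(FPKM + 1) over the 7 groups, among 10846 genes with 1 FPKM or more in each group. Mcam was closest to G6pdx (r = 0.981), Thap11 (r = 0.980) and Praf2 (r = 0.971). Praf2 had 16.1, 15.9 and 14.1 FPKM in the 3 anagen groups, 6.35 in telogen WT and 10.8 and 11.1 in telogen cKO and iKO cells. Pecam1 was closest to Acer2 (r = 0.995), Cln8 and Rcbtb1, and Vwf to Tmem38b (r = 0.990), Cd209c and Glrx2. Only 6 of 34 further endothelial genes reached 1 FPKM in telogen WT cells, so most endothelial genes could not be ranked here. The single first telogen library dominates both profiles: Pecam1 had 18.3 FPKM there and at most 2.11 elsewhere, and Vwf 16.7 and at most 0.658. Tmem38b had 167 FPKM in the first telogen library and at most 6.21 elsewhere.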

How the data were processed

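Gene expression in sorted HFSCs was analysed from 3 deposited Cuffdiff tables. TopHat, Cufflinks and Cuffdiff were used with build mm9, per the submitters' processing notes. Versions, settings and annotation are not given in the sources used here. FPKM values, 1 per group, were pooled over libraries by the authors. The log2 fold change, the test statistic (a score) and the p-value and q-value are as deposited, per the file headers. Each table was scaled separately, so levels are compared within a table. Counts and depth are unknown, and the labels show separate mice by sex and age in the telogen WT and cKO groups alone. In the other groups they do not say whether the libraries came from separate mice, so p-values there may measure technical spread.

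Genes with a deposited q below 0.05 were called, and "rose" or "fell" refers to calls. The SE is the log2 fold divided by the statistic and is approximate. Knockout effects were compared by a z test on both log2 folds, without genes (101 in anagen) where the statistic read as a normal z would pass 0.05 but the deposited p did not, and tested on simulated data. Ratios with a pseudocount of 1 understate changes of low genes. Starts were turned to 1-based: the end minus the start equalled the RefSeq length in 8149 of 22080 gene models. The members, lists and tests were chosen with earlier results of these data known. All 10 members are named, plus up to 4 called genes per list and 2-group table by lowest q, and 3 genes of like profile for the 3 highest members. Genes chosen after their values were seen are Plvap, Emcn, Pf4, Fbln1, Dcn and those of the closing observations. Ppbp and Gp9 are given as further genes of the platelet list. Analysis used Python 3.11.15, pandas 2.3.3 and SciPy 1.17.1.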

Additional observations from a re-analysis of the deposited data

Results flagged for a closer look

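Mcam had different knockout effects in the 2 stages by a test of the difference itself. Its log2 fold was -0.08 in anagen iKO against Het cells and 2.36 in telogen cKO against WT cells, a difference of 2.44 (SE 0.50), with an adjusted p of 0.000499 in the z test across all genes. Stage cannot be told apart here from the driver of Cre and from the genotype, strain, age and sex of the controls. The same holds for tamoxifen, which the mice of both anagen groups received, if the telogen mice did not.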

How the results depend on the processing

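Libraries could not be left out and spread could not be computed, because each table holds 1 pooled value per group. No paired analysis was possible because the columns carry no replicate numbers. Of the 10 genes, the number called in anagen was 2, and was 1 when p was adjusted over genes with at least 1 FPKM in either group, since Vwf is below that level. In telogen cKO against WT cells 2 genes were called, 1 at q below 0.01 (Mcam), 1 with the FPKM minimum, which leaves out Flt1, and 3 in the joint table, where Tek was added with q = 0.00834. No other count of called genes among the 5 comparisons moved by more than 1.5 times under the alternatives run. Over all genes the telogen comparison gave 897 calls in its own table and 1677 in the joint table. The difference test called 85 genes, 45 with the larger of both SE estimates and 133 in the joint table, with Mcam as the member called each time. Medians of log2((FPKM + pseudocount) ratio) depended on the pseudocount. At 0.1 they were -0.28 in anagen iKO against Het, -0.27 in telogen iKO against WT, -1.89 in telogen iKO against anagen iKO and 2.38 in anagen Het against telogen WT cells. At 5 the latter pair of comparisons gave -0.12 and 0.15. With members of at least 1 FPKM in either group the medians were -0.21 in anagen and 1.84 in telogen knockouts, the latter from Mcam alone. Joint levels stood at -0.08 (anagen) and 0.06 (telogen) on the log2 scale against the 2-group tables. Unknown depth limits every value below 1 FPKM, which in second telogen covers all members but Mcam.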

Other observations

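Some genes used as vessel markers were present in second telogen cells where Cdh5, Cldn5 and Rgs5 were listed at or near 0. Of 34 further endothelial genes, 6 were at 1 FPKM or more in telogen WT cells. They were Ramp2 (15.3 FPKM), which helps receptors for adrenomedullin reach the surface, the TGF-beta family receptor gene Acvrl1 (11.7), Ecscr (3.65), Egfl7 (2.55), Calcrl (2.16) and the transcription factor Sox7 (1.87). Among pericyte genes the proteoglycan Cspg4 had 74.2 FPKM in telogen WT cells and 32.0 to 74.9 in the other groups. Ndufa4l2, a gene induced by low oxygen, had 31.4 FPKM in telogen WT and 229 in cKO cells in the telogen table, a 7.30-fold rise with q = 0.00159 in the authors' deposited table.

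The anagen II library, of which there is 1, held the highest levels of 4 of 16 further pericyte and smooth muscle genes. Acta2, smooth muscle actin, had 254 FPKM and Tagln 369, against 16.8 and 17.5 in first telogen and at most 10.2 and 30.2 in the other groups.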
